A study of Mus musculus with 10 samples.

Results

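The insulin-like growth factor axis was followed through 10 genes of mouse liver: the ligand Igf1, the receptors Igf1r and Igf2r, the acid-labile subunit gene Igfals, and the binding-protein genes Igfbp1, Igfbp2, Igfbp3, Igfbp4, Igfbp5 and Igfbp7. They were taken by symbol from a table of 56748 genes, and each symbol had 1 row. RNA was sequenced from 10 liver samples in 3 groups. There were 4 normal livers of wild-type FVB mice and 6 hepatocellular carcinomas. Akt and Nras were delivered in 3 of the carcinomas, here called Akt/Nras tumours. Foxo1AAA was delivered as well in the other 3, which are called Akt/Nras/Foxo1AAA tumours and carry FoxoAAA in their sample names. The tumours also carry the genotype label WT. Their oncogenes were delivered as DNA to hepatocytes by hydrodynamic injection, a rapid injection into the tail vein, so tumours started from cells that took up the DNA while the rest of the animal was unmodified. The labels name no injected DNA for the normal livers, and do not say whether those mice were injected. FOXO1 is a transcription factor that AKT phosphorylates and keeps out of the nucleus, and Foxo1AAA is a form that AKT cannot phosphorylate at those sites. Sex, age, feeding state and batch were not given in the labels, nor whether each sample came from a separate animal, so a p-value reflects only how these libraries vary, which may be partly technical.

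Hepatocytes make most of the circulating IGF1, under the control of growth hormone through its receptor and the transcription factor STAT5. In blood most IGF1 is carried in a ternary complex with IGFBP3 or IGFBP5 and the acid-labile subunit, which lengthens its life in the circulation. The other binding proteins hold the ligand in smaller complexes, and IGFBP1 is a short-term regulator whose gene is switched off by insulin and switched on by FOXO1. Igf1r encodes the receptor that signals through PI3 kinase and AKT. IGF2R takes ligand into the cell for lysosomal breakdown and also sorts lysosomal enzymes. IGFBP7 binds IGFs only weakly and is a secreted protein of vessel and matrix-forming cells.

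The values were deposited as FPKM, a unit of fragments per length of gene and per depth of library, so levels of different genes can be set beside each other. They rest on 13.6 to 17.5 M reads in a normal liver, 16.2 to 21.3 M in an Akt/Nras tumour and 15.4 to 20.7 M where Foxo1AAA was added. The total FPKM of a library was 349619 to 444893 in the 6 tumours and 692010 to 743203 in the normal livers, so the deposited scale differs between groups. Depth in recovered reads alone did not set that scale. In the first normal liver, with 17.5 M reads, 1 read over 1 kb counted as 0.0854 FPKM. It counted as 0.0608 FPKM in the first Akt/Nras tumour, with 16.2 M reads. In the third Akt/Nras/Foxo1AAA tumour, with 15.4 M reads, it counted as 0.07 FPKM. Foxo1 stood at 77.9 to 125 FPKM in the Akt/Nras/Foxo1AAA tumours and at 5.37 to 6.05 FPKM in the Akt/Nras tumours. Akt1 stood at 20.6 to 21.6 FPKM in the normal livers and at 670 to 1198 FPKM in the 6 tumours. Both genes matched the labels in all 10 libraries.

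Promoter sequences are shown for 3 of the genes because Igfbp1 is a textbook FOXO1 target, Igfals a textbook STAT5 target, and Igfbp3 the close neighbour of Igfbp1 on chromosome 11. All 10 genes had an entry in RefSeq (build GRCm38.p6), with 13 promoters among them. The 250 bases before each start were searched on both strands for CAAAACAA, the core of the insulin response element through which FOXO proteins act, for TTGTTTAC, a FOXO-binding element, and for TTCNNNGAA, the STAT5 element. These elements do not overlap one another in the lines below, where each match is in capitals and each line runs 5′ to 3′ on the strand of the gene. Igfbp1 lies on the plus strand (chr11:7197537-7197786), Igfals, shown by its second promoter, on the plus strand (chr17:24877981-24878230), and Igfbp3 on the minus strand (chr11:7213924-7214173).
Igfbp1: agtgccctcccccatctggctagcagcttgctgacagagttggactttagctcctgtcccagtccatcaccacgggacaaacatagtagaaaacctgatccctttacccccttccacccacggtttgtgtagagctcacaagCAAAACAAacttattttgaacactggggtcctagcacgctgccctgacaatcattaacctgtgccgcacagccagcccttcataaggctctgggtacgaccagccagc
Igfals: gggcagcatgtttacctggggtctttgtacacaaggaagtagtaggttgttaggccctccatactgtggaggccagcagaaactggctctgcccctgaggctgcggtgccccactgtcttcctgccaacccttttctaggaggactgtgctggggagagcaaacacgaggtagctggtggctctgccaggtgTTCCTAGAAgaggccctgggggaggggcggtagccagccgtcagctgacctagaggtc
Igfbp3: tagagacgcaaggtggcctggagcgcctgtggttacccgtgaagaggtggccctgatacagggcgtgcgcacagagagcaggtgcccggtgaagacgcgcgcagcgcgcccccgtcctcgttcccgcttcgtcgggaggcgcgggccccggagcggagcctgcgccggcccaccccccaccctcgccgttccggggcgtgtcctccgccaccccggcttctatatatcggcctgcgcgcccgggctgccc
CAAAACAA was in the Igfbp1 promoter, from 108 to 101 bases before the start, and in no other of the 13. It was in 2.21% of the 32851 RefSeq promoters of the same length. TTCNNNGAA was in 2 of the Igfals promoters, as TTCCTAGAA from 58 to 50 bases before the start in the line above and as TTCTCAGAA from 236 to 228 bases before the start of the first promoter, and in 7.02% of all promoters. TTGTTTAC was in none of the 13 and in 1.07% of all promoters. The Igfbp3 promoter held none of the 3 elements, was 73.2% G and C and had 32 CpG dinucleotides, against 53.2% and 5 for Igfbp1.

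The axis was rearranged in both kinds of tumour: the ligand, its acid-labile subunit and the most abundant binding proteins of normal liver fell, whereas Igfbp1, Igfbp3, Igfbp7 and Igf2r rose. Tests used limma on log2(FPKM + 1) over all 10 libraries, with Benjamini-Hochberg adjustment over 12439 genes that reached 1 FPKM in at least 3 libraries. A gene is called at an adjusted p under 0.05. Igf1r alone of the 10 genes missed that level and was not tested. In Akt/Nras tumours against normal liver 8 of the 9 tested genes were called, 4 higher and 4 lower, where 69.0% of all tested genes were called, 31.1% higher and 37.9% lower. In Akt/Nras/Foxo1AAA tumours 9 of 9 were called, 4 higher and 5 lower, against 63.3% of all tested genes, 26.8% higher and 36.5% lower. Most tested genes differed from normal liver as well, so the counts alone do not set these genes apart. The median absolute log2 change of the 9 genes was 2.67 in Akt/Nras and 2.29 in Akt/Nras/Foxo1AAA tumours, against 0.55 and 0.46 over all tested genes. The signed medians were -0.41 and -1.0, against -0.07 and -0.09 over all tested genes. These medians are descriptions: the genes were chosen with earlier results of these data known. Adding 1 before the log also shrinks the changes of low genes, which count among all tested genes. Both comparisons use the same 4 normal livers. With every library brought to the same FPKM total, the median of all genes moved to 0.70 in Akt/Nras and 0.47 in Akt/Nras/Foxo1AAA tumours. The calls of all genes then split into 8609 higher and 1713 lower (3871 and 4716 as deposited) and into 7584 higher and 1681 lower (3330 and 4544 as deposited). On that scale 4 of the 9 genes were still called higher and 4 lower in each comparison.

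**Figure D1:**
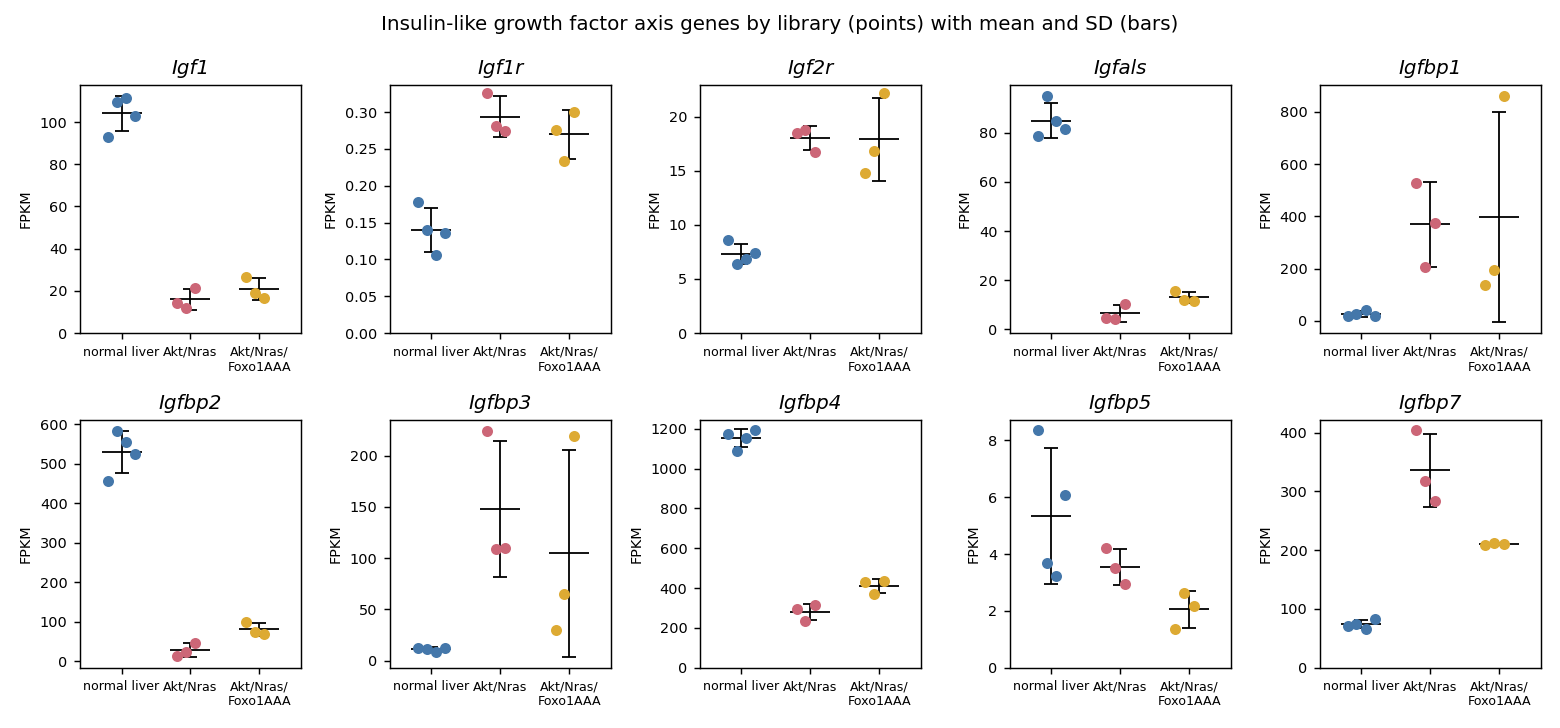
FPKM of each of the 10 genes (vertical axis, linear, 1 panel a gene) in the 3 groups, with 1 point per library and a line and bar for the mean and SD of the group (n = 4, 3 and 3). Igf1, Igfals, Igfbp2 and Igfbp4 are lower in every tumour than in any normal liver, and Igf2r, Igfbp1, Igfbp3 and Igfbp7 are higher in every tumour.

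Igf1, the ligand, measured 93.1, 109, 111 and 103 FPKM in the 4 normal livers. It measured 14.2, 12.0 and 21.4 FPKM in the Akt/Nras tumours and 26.7, 18.9 and 16.8 FPKM in the Akt/Nras/Foxo1AAA tumours. No tumour came near a normal liver, while the tumour groups overlapped. The mean was 104 ± 8.29 FPKM for normal liver (SD, n = 4). It was 15.9 ± 4.93 FPKM for Akt/Nras tumours and 20.8 ± 5.22 FPKM for Akt/Nras/Foxo1AAA tumours (SD, n = 3 each). Igf1 fell 6.56-fold in Akt/Nras tumours, a log2 change of -2.67 with a standard error of 0.19 (limma, adjusted p = 6.07e-07), and 5.0-fold in Akt/Nras/Foxo1AAA tumours (log2 -2.29, limma adjusted p = 3.06e-06). With equal FPKM totals these log2 changes were -1.73 and -1.59. Against the albumin transcript of the same library, a ratio that library scaling cannot alter, Igf1 stood at 2.77 ± 0.288 FPKM per 1000 FPKM of Alb in normal liver (SD, n = 4). The ratio was 0.834 ± 0.302 in Akt/Nras and 0.855 ± 0.136 in Akt/Nras/Foxo1AAA tumours (SD, n = 3 each).

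Igfals, which encodes the acid-labile subunit that completes the ternary complex, fell further than Igf1 in Akt/Nras tumours. It measured 78.7, 94.9, 84.9 and 81.4 FPKM in normal livers, 4.70, 4.42 and 10.4 FPKM in Akt/Nras tumours, and 15.8, 12.1 and 11.6 FPKM in Akt/Nras/Foxo1AAA tumours. The 3 groups did not overlap, and the first Akt/Nras/Foxo1AAA tumour was the highest of the 6 tumours. Igfals fell 13.1-fold in Akt/Nras tumours (log2 -3.60, SE 0.23, limma adjusted p = 2.63e-07) and 6.47-fold in Akt/Nras/Foxo1AAA tumours (log2 -2.61, limma adjusted p = 4.1e-06). With equal totals the log2 changes were -2.70 and -1.91. Normal liver had 1.23 ± 0.073 FPKM of Igf1 for each FPKM of Igfals (SD, n = 4). Akt/Nras tumours had 2.60 ± 0.492, and Akt/Nras/Foxo1AAA tumours had 1.57 ± 0.12 (SD, n = 3 each).

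The 2 receptor genes sat at very different levels. Igf1r, the signalling receptor, measured 0.178, 0.139, 0.106 and 0.135 FPKM in normal livers, 0.326, 0.281 and 0.274 FPKM in Akt/Nras tumours, and 0.276, 0.233 and 0.300 FPKM in Akt/Nras/Foxo1AAA tumours. These values rest on 17 to 35 reads per normal liver, 84 to 98 per Akt/Nras tumour and 70 to 84 per Akt/Nras/Foxo1AAA tumour. Every tumour lay above every normal liver, by 2.10-fold and 1.93-fold between the means, and the tumour groups overlapped. The two-sided exact permutation p was 0.0571 for each comparison with normal liver, which is the smallest that 4 libraries against 3 allow. Fitted without the filter on low values, Igf1r was called in both comparisons (limma, adjusted p = 0.0046 and 0.0129). With a pseudocount of 0.1 and no filter, a setting added after seeing the data, the adjusted p was 0.0323 and 0.0636.

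Igf2r, the receptor for uptake and breakdown, measured 8.57, 6.42, 6.87 and 7.45 FPKM in normal livers. It measured 18.5, 18.8 and 16.8 FPKM in Akt/Nras tumours and 14.8, 16.8 and 22.2 FPKM in Akt/Nras/Foxo1AAA tumours. All tumours exceeded all normal livers, and the tumour groups overlapped fully. Igf2r rose 2.46-fold in Akt/Nras tumours (log2 1.20, SE 0.13, limma adjusted p = 1.5e-05) and 2.45-fold in Akt/Nras/Foxo1AAA tumours (log2 1.17, limma adjusted p = 2.51e-05). With equal totals the log2 changes were 2.09 and 1.82. The ratio of Igf2r to Igf1r, both in FPKM, was 53.6 ± 8.52 for normal liver (SD, n = 4). For Akt/Nras tumours it was 61.7 ± 4.97 and for Akt/Nras/Foxo1AAA tumours 66.5 ± 11.2 (SD, n = 3 each).

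Igfbp2 and Igfbp4, the leading binding-protein genes of normal liver, both fell. Igfbp2 measured 458, 582, 555 and 524 FPKM in normal livers, 14.5, 24.5 and 46.7 FPKM in Akt/Nras tumours, and 100.2, 74.2 and 68.2 FPKM in Akt/Nras/Foxo1AAA tumours. The 3 groups did not overlap, and within the Akt/Nras group the third tumour was the highest. The fall of Igfbp2 was 18.5-fold in Akt/Nras tumours (log2 -4.31, SE 0.30, limma adjusted p = 5.34e-07) and 6.55-fold in Akt/Nras/Foxo1AAA tumours (log2 -2.71, limma adjusted p = 2.36e-05). In Akt/Nras tumours this was the largest change among the 9 tested genes in size on the deposited scale. The ranking depends on the scale: Igfbp2 was at -3.36 with equal totals, whereas Igfbp1 was at 3.40 or above in every alternative run. Igfbp4 measured 1172, 1091, 1154 and 1195 FPKM in normal livers, 293, 237 and 314 FPKM in Akt/Nras tumours, and 428, 370 and 436 FPKM in Akt/Nras/Foxo1AAA tumours. The groups again stood apart, with little spread within each. Igfbp4 fell 4.10-fold in Akt/Nras tumours (log2 -2.04, SE 0.11, limma adjusted p = 1.1e-07) and 2.80-fold in Akt/Nras/Foxo1AAA tumours (log2 -1.49, limma adjusted p = 1.61e-06). With equal totals the log2 changes were -1.07 and -0.76 for Igfbp4 and -3.36 and -1.99 for Igfbp2. Igfbp4 was the 71st most abundant of all genes in normal liver by mean FPKM and the 134th in Akt/Nras tumours, whereas Igfbp2 went from rank 158 to rank 1507. Per 1000 FPKM of Alb, Igfbp2 stood at 14.0 ± 1.45 in normal liver and 1.50 ± 0.928 in Akt/Nras tumours, and Igfbp4 at 30.6 ± 2.66 and 14.7 ± 2.99 (SD, n = 4 and 3).

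Igfbp1, the insulin-repressed binding protein whose promoter is the first line above, measured 18.7, 26.5, 41.7 and 19.7 FPKM in normal livers. It measured 528, 206 and 374 FPKM in Akt/Nras tumours and 138, 196 and 859 FPKM in Akt/Nras/Foxo1AAA tumours. Each tumour was above each normal liver. The Akt/Nras/Foxo1AAA tumours were widely spread and included both the lowest and the highest of the 6 tumours. Igfbp1 rose 13.8-fold in Akt/Nras tumours (log2 3.71, SE 0.57, limma adjusted p = 0.000173) and 14.9-fold in Akt/Nras/Foxo1AAA tumours (log2 3.45, limma adjusted p = 0.000366). Without the third Akt/Nras/Foxo1AAA tumour the latter log2 change was 2.65 (limma, adjusted p = 0.000322). By mean FPKM Igfbp1 was at rank 2031 of all genes in normal liver, at rank 100 in Akt/Nras tumours and at rank 106 in Akt/Nras/Foxo1AAA tumours.

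Igfbp3, the carrier of the ternary complex, measured 12.2, 11.6, 8.18 and 12.0 FPKM in normal livers, 224, 108 and 110 FPKM in Akt/Nras tumours, and 29.8, 64.9 and 219 FPKM in Akt/Nras/Foxo1AAA tumours. Every tumour was above every normal liver, and the tumour groups overlapped. Igfbp3 rose 13.4-fold in Akt/Nras tumours (log2 3.56, SE 0.54, limma adjusted p = 0.00015) and 9.52-fold in Akt/Nras/Foxo1AAA tumours (log2 2.69, limma adjusted p = 0.00127). Without the third Akt/Nras/Foxo1AAA tumour the latter was 1.93 (limma, adjusted p = 0.00119). The ternary complex genes moved apart: Igfbp3 per Igfals, both in FPKM, was 0.13 ± 0.0265 for normal liver (SD, n = 4), and in the tumours 27.6 ± 18.7 without and 8.74 ± 9.01 with Foxo1AAA (SD, n = 3 each).

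Igfbp1 and Igfbp3 lie on opposite strands of chromosome 11, 3539 bases apart by the positions in the deposited table, which names no build. Within each tumour group their order over the libraries was the same. In Akt/Nras tumours the first was highest and the second lowest for both genes, and in Akt/Nras/Foxo1AAA tumours the third was highest and the first lowest for both. A shared order is not particular to neighbours: Igf1 with Igfals, and Igfbp5 with Igfbp7, had it in both tumour groups and lie on different chromosomes. Over the 6 tumours Igfbp3 ranked 107 of 12422 genes by Pearson's r of log2(FPKM + 1) with Igfbp1 (0.904). In normal liver the third library was the highest for Igfbp1 and the lowest for Igfbp3. The ratio of Igfbp1 to Igfbp3 was 2.64 ± 1.67 for normal liver (SD, n = 4), and in the tumours 2.55 ± 0.768 without and 3.86 ± 0.799 with Foxo1AAA (SD, n = 3 each). The other neighbouring pair, Igfbp2 and Igfbp5 on chromosome 1, lies 5457 bases apart, with log2 changes of -4.31 and -0.41 in Akt/Nras tumours.

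**Figure D2:**
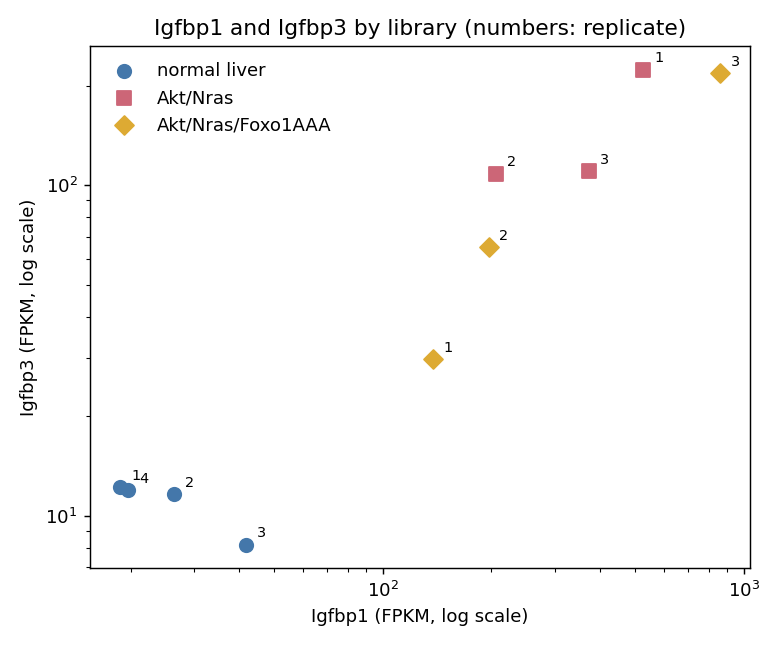
Igfbp1 (horizontal axis, FPKM, log scale) against Igfbp3 (vertical axis, FPKM, log scale), with 1 point per library, shape and colour for the group and the replicate number beside each point. The 4 normal livers sit at 18.7 to 41.7 FPKM of Igfbp1 and 8.18 to 12.2 FPKM of Igfbp3, and the 6 tumours at 138 to 859 and 29.8 to 224 FPKM.

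Igfbp7, the weak IGF binder of vessel and matrix-forming cells, measured 71.2, 75.1, 66.6 and 83.6 FPKM in normal livers. It measured 405, 318 and 284 FPKM in Akt/Nras tumours and 209, 213 and 210 FPKM in Akt/Nras/Foxo1AAA tumours. The 3 groups did not overlap, and the Akt/Nras/Foxo1AAA tumours were nearly equal to each other. Igfbp7 rose 4.53-fold in Akt/Nras tumours (log2 2.15, SE 0.12, limma adjusted p = 1.33e-07) and 2.84-fold in Akt/Nras/Foxo1AAA tumours (log2 1.50, limma adjusted p = 2.65e-06). Different marker genes of such cells gave unlike ratios to Igfbp7. The ratio of Igfbp7 to Pecam1, an endothelial marker, was 35.4 ± 4.0 for normal liver (SD, n = 4), 54.6 ± 12.6 for Akt/Nras tumours and 38.1 ± 5.59 for Akt/Nras/Foxo1AAA tumours (SD, n = 3 each). The ratio of Igfbp7 to Col1a1, a collagen gene of matrix-forming cells, was 42.9 ± 12.0 for normal liver (SD, n = 4), and in the tumours 5.44 ± 0.782 without and 5.04 ± 0.833 with Foxo1AAA (SD, n = 3 each). Pecam1 was one of 5 endothelial markers called higher in Akt/Nras tumours, where 4 others of the 12 tested were lower, among them Clec4g (log2 -1.33, limma adjusted p = 0.000759, lost with equal totals at 0.101). In bulk tissue fewer cells of a type and less RNA per cell cannot be told apart, and this holds for each gene here.

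Igfbp5, the other carrier able to form the ternary complex, was a low-level transcript in all groups. It measured 8.38, 3.67, 3.24 and 6.07 FPKM in normal livers, 4.21, 3.51 and 2.95 FPKM in Akt/Nras tumours, and 1.35, 2.64 and 2.17 FPKM in Akt/Nras/Foxo1AAA tumours. Akt/Nras tumours overlapped normal liver and were not called (log2 -0.41, SE 0.26, limma adjusted p = 0.187), and the sign changed to 0.37 with equal totals. Igfbp5 was called lower in Akt/Nras/Foxo1AAA tumours, by 2.60-fold (log2 -1.0, SE 0.26, limma adjusted p = 0.00653). That call was lost with equal totals (log2 -0.46, limma adjusted p = 0.144), so it depends on the scale of the deposited values.

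Set together, the transcripts of the 6 binding-protein genes differed in make-up between normal liver and tumours. Their levels summed to 1800 ± 45.3 FPKM for normal liver (SD, n = 4), and for the tumours to 1166 ± 288 FPKM without and 1207 ± 509 FPKM with Foxo1AAA (SD, n = 3 each). The third Akt/Nras/Foxo1AAA tumour, at 1796 FPKM, lay within the range of normal liver. The direction of this difference depends on the scale: as a share of all FPKM of a library the sum was 0.251 ± 0.00778% for normal liver (SD, n = 4), and 0.319 ± 0.0758% without and 0.282 ± 0.132% with Foxo1AAA (SD, n = 3 each). In normal liver Igfbp4 made up 64.1 ± 2.72% of the sum and Igfbp2 29.4 ± 2.66%, whereas Igfbp1, Igfbp3 and Igfbp7 had 1.48 ± 0.57%, 0.612 ± 0.112% and 4.12 ± 0.373% (SD, n = 4). In Akt/Nras tumours Igfbp1 made up 30.6 ± 6.84%, Igfbp7 29.4 ± 5.41%, Igfbp4 24.7 ± 4.15%, Igfbp3 12.4 ± 2.76% and Igfbp2 2.62 ± 1.58% (SD, n = 3). In Akt/Nras/Foxo1AAA tumours Igfbp4 had 37.2 ± 11.8%, Igfbp1 28.1 ± 17.4%, Igfbp7 19.3 ± 6.56%, Igfbp2 7.64 ± 3.65% and Igfbp3 7.51 ± 4.47% (SD, n = 3). A pair of genes dominated normal liver, and no single gene dominated the Akt/Nras tumours. The Igfbp1 share was 15.2%, 21.3% and 47.9% in the 3 Akt/Nras/Foxo1AAA tumours, and the spread of the other shares follows it. These shares are within a library, so no scaling between libraries alters them.

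**Figure D3:**
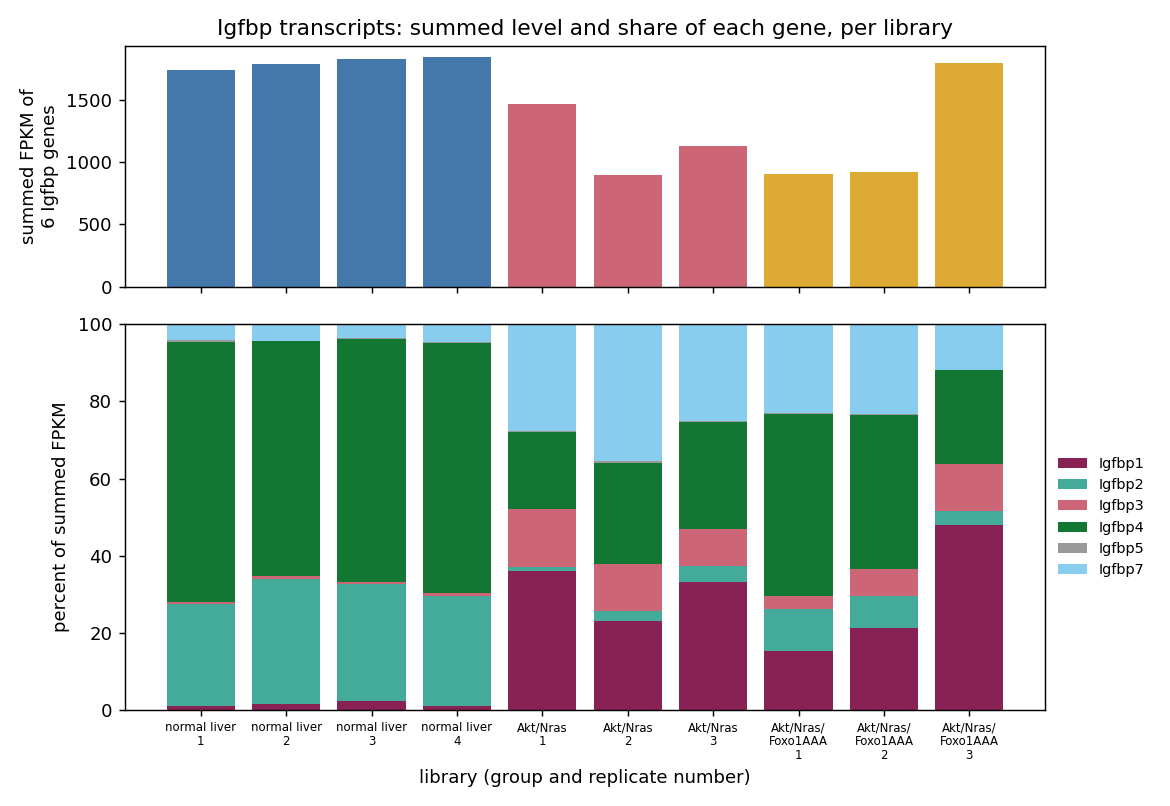
Summed FPKM of the 6 Igfbp genes (upper bars) and the percent of that sum from each gene (lower stacked bars) in each of the 10 libraries. Igfbp4 and Igfbp2 fill most of each normal liver, and Igfbp1, Igfbp3 and Igfbp7 together fill 41.5% to 78.8% of each tumour but 5.87% to 6.37% of each normal liver.

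Between the tumour groups, which differ by Foxo1AAA, Igfals, Igfbp2 and Igfbp4 were higher with Foxo1AAA and Igfbp7 was lower. In Akt/Nras/Foxo1AAA against Akt/Nras tumours 4 of the 9 tested genes were called, where 12.1% of all tested genes were called, and 3 were higher and 1 lower, against 7.93% and 4.13% of all tested genes. As a description, the median log2 change of the 9 genes was -0.03 and the median of their sizes 0.59, against -0.01 and 0.18 over all tested genes. Igfals was 2.02-fold higher (log2 0.99, SE 0.24, limma adjusted p = 0.0282). Igfbp2 was 2.83-fold higher (log2 1.60, SE 0.33, limma adjusted p = 0.0138), and Igfbp4 was 1.46-fold higher (log2 0.55, SE 0.12, limma adjusted p = 0.0186). Igfbp7 was 1.59-fold lower (log2 -0.65, SE 0.13, limma adjusted p = 0.0133). For each of these 4 genes the 3 libraries of one tumour group all lay above those of the other. That was also so for Igfbp5, which was not called. The share of all tested genes with such a separation was not counted, and genes picked by their calls tend to separate, so this adds no support. Every one of these 4 calls was lost when the fit held only the 6 tumours, where the adjusted p from limma was 0.111 for Igfals, 0.0772 for Igfbp2, 0.0871 for Igfbp4 and 0.0687 for Igfbp7, and where 10 genes in all were called. The smallest exact permutation p that 3 libraries against 3 allow is 0.1. The Igfals call was lost without the first or second Akt/Nras tumour (limma, adjusted p = 0.0872 and 0.077) or the first or second Akt/Nras/Foxo1AAA tumour (0.109 and 0.0687). Without the first Akt/Nras/Foxo1AAA tumour the calls of Igfbp2 (limma, adjusted p = 0.0588) and Igfbp4 (0.0672) were lost. With equal totals the log2 difference of Igfbp4 was 0.31 (limma, adjusted p = 0.073) and the split of all calls was 656 higher and 3234 lower, against 986 and 514 as deposited.

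Of the 5 tested genes without a call between the tumour groups, Igf1 had a log2 difference of 0.38 (SE 0.21, limma adjusted p = 0.249) and Igf2r of -0.03 (SE 0.14, limma adjusted p = 0.923). Igfbp1, the FOXO1 target, had a log2 difference of -0.27 with a standard error of 0.61 (limma, adjusted p = 0.812). The spread among its libraries was wide, and a missed threshold does not show that the groups were alike. Igfbp3 had a log2 difference of -0.87 (SE 0.57, limma adjusted p = 0.347). Without the third Akt/Nras/Foxo1AAA tumour Igfbp3 was called lower (log2 -1.63, limma adjusted p = 0.019). Igfbp5 had a log2 difference of -0.59 (SE 0.28, limma adjusted p = 0.191), with libraries that did not overlap.

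**Figure D4:**
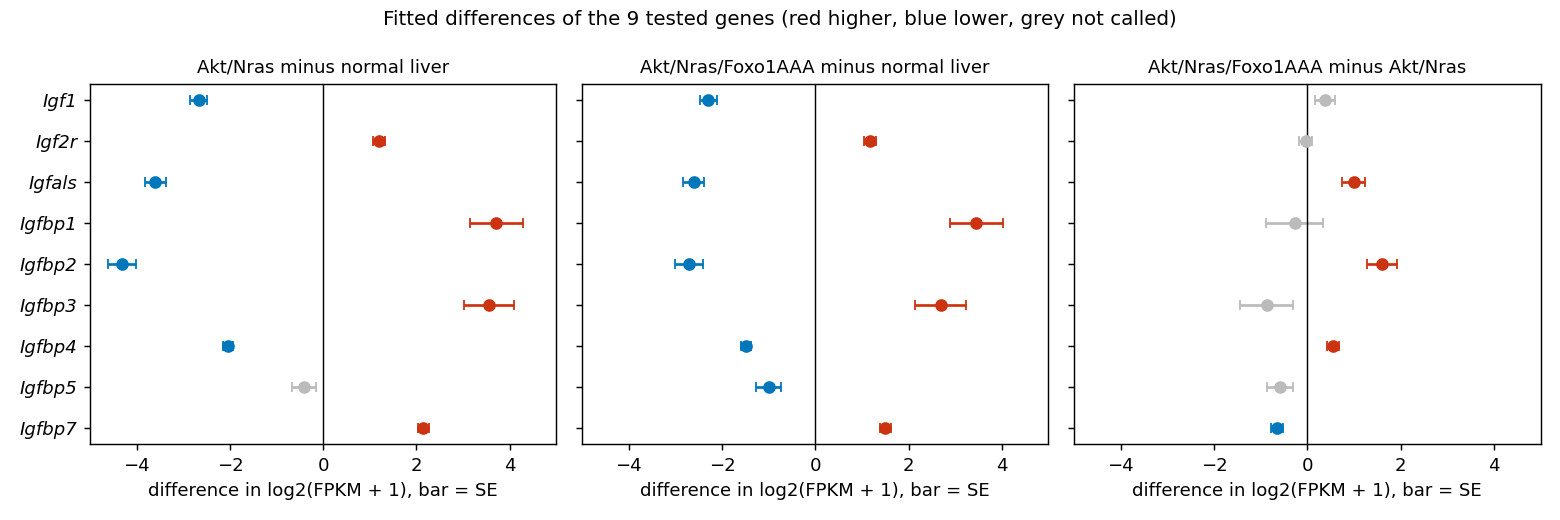
Fitted difference in log2(FPKM + 1) of the 9 tested genes (horizontal axis) with its standard error, for each of the 3 comparisons. Red and blue points passed the adjusted p, and grey points did not; Igfbp2 has the largest difference of the left panel, at -4.31, and is at 1.60 in the right panel.

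Among genes of a growth hormone and STAT5 list, receptors had the largest falls, while the direction of the list as a whole depended on the scale. Of 22 tested genes on that list 12 were lower and 5 higher in Akt/Nras tumours, and 12 lower and 4 higher in Akt/Nras/Foxo1AAA tumours, with median log2 changes of -0.71 and -0.53. Over all tested genes 37.9% were lower and 31.1% higher in the first comparison, and 36.5% and 26.8% in the second. With equal totals 4 genes of the list were lower and 10 higher in Akt/Nras tumours and 5 and 9 in Akt/Nras/Foxo1AAA tumours, with medians of 0.20 and 0.07 beside 0.70 and 0.47 over all tested genes. Ghr, the growth hormone receptor, fell from 111 ± 6.56 FPKM (SD, n = 4) to 10.1 ± 0.914 FPKM in Akt/Nras and 16.0 ± 3.36 FPKM in Akt/Nras/Foxo1AAA tumours (SD, n = 3 each; log2 -3.34 and -2.74, limma adjusted p = 1.26e-08 and 7.28e-08). Prlr, the prolactin receptor, fell in both tumour groups (log2 -2.35 and -1.62, limma adjusted p = 3.08e-07 and 6.67e-06), as did Egfr, the epidermal growth factor receptor (log2 -2.28 and -2.40, limma adjusted p = 9.96e-07 and 1.25e-06). Socs3, an inhibitor of cytokine receptor signalling, rose in both (log2 1.04 and 0.80, limma adjusted p = 0.000303 and 0.0021). Lepr, the leptin receptor, rose in Akt/Nras tumours (log2 0.74, limma adjusted p = 0.0225, lost without the first or the third Akt/Nras tumour at 0.0641 and 0.105) and in Akt/Nras/Foxo1AAA tumours (log2 0.95, limma adjusted p = 0.00726). Between the tumour groups 4 genes of the list were higher and 1 lower, where 7.93% of all tested genes were higher and 4.13% lower. With equal totals 3 genes of the list were higher and 5 lower in this comparison. Cebpa, a hepatocyte transcription factor, was higher in Akt/Nras/Foxo1AAA tumours (log2 0.92, limma adjusted p = 0.0112), and so was Prlr (log2 0.72, limma adjusted p = 0.0207). Socs2, a STAT5-induced inhibitor, was lower (log2 -1.02, limma adjusted p = 0.0467). With the 6 tumours alone these 3 calls were lost (limma, adjusted p = 0.0698, 0.0915 and 0.0522). Prlr was also lost without the first or second Akt/Nras tumour (0.0634 and 0.0571) or the first Akt/Nras/Foxo1AAA tumour (0.0846), and Socs2 without any 1 of 8 libraries.

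Receptor signalling genes did not move in 1 direction on the deposited scale. Of 22 tested genes 8 were higher and 6 lower in Akt/Nras tumours, and 7 were higher and 7 lower in Akt/Nras/Foxo1AAA tumours, with medians of 0.00 and -0.09. These counts are near the shares of all tested genes given above. With equal totals 18 were higher and 2 lower in Akt/Nras and 15 and 2 in Akt/Nras/Foxo1AAA tumours, with medians of 0.87 and 0.60 beside 0.70 and 0.47 over all tested genes. The adaptor Grb7 fell (log2 -1.44 and -1.25, limma adjusted p = 9.28e-07 and 4.23e-06). Insr, the insulin receptor, fell in both (log2 -1.06 and -0.80, limma adjusted p = 6.64e-07 and 8.82e-06). With equal totals Insr was at -0.20 and -0.15, and the second call was lost (limma, adjusted p = 0.135). Irs2, an insulin receptor substrate, fell in both as well (log2 -0.77 and -1.26, limma adjusted p = 0.0187 and 0.00131). Its call in Akt/Nras tumours was lost with equal totals (log2 -0.01, limma adjusted p = 0.982) and without the second normal liver (0.0503) or the second or the third Akt/Nras tumour (0.0867 and 0.0632). Grb10, an adaptor that restrains insulin and IGF1 receptors, rose (log2 1.72 and 0.81, limma adjusted p = 8.65e-06 and 0.00231), as did Pik3r3, a regulatory subunit of PI3 kinase (log2 1.41 and 1.57, limma adjusted p = 1.08e-06 and 9.09e-07). Between the tumour groups 2 genes of the list were lower and 0 higher, where 12.1% of all tested genes were called. Grb10 was lower in Akt/Nras/Foxo1AAA tumours (log2 -0.91, limma adjusted p = 0.0151, lost with the 6 tumours alone at 0.0722 and without the second Akt/Nras/Foxo1AAA tumour at 0.0585). Rack1, a scaffold protein gene, was lower too (log2 -0.47, limma adjusted p = 0.0373), and its call was lost without any 1 of 6 libraries.

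Genes of binding-protein breakdown mostly rose. Of 15 tested genes 12 were higher and 1 lower in Akt/Nras tumours, and 14 higher and 1 lower in Akt/Nras/Foxo1AAA tumours, with median log2 changes of 1.47 and 0.91, where 31.1% and 26.8% of all tested genes were higher. Timp1, a metalloproteinase inhibitor, rose in both (log2 5.07 and 3.96, limma adjusted p = 6.47e-07 and 6.29e-06). Plg, plasminogen, fell (log2 -1.98 and -1.19, limma adjusted p = 2.23e-07 and 1.27e-05). Between the tumour groups 2 genes were higher and 1 lower, where 7.93% of all tested genes were higher and 4.13% lower. With equal totals 1 gene of the list was higher and 9 lower, beside 656 higher and 3234 lower over all tested genes. The direction of this list between the tumour groups therefore depends on the scale. Mmp7, matrilysin, was lower in Akt/Nras/Foxo1AAA tumours (log2 -1.82, limma adjusted p = 0.0104) and Plg higher (log2 0.79, limma adjusted p = 0.00734), both lost with the 6 tumours alone (0.0693 and 0.0613). Ctsb, cathepsin B, was higher as well (log2 0.44, limma adjusted p = 0.0278), and the call was lost with equal totals (0.134) and without any 1 of 4 libraries. Among other IGF family genes 4 of 10 were tested, and 2 were called higher against normal liver in each tumour group. Igfbpl1, an IGFBP-like gene, had 0 reads in all normal livers, 60 to 77 per Akt/Nras tumour and 17 to 25 per Akt/Nras/Foxo1AAA tumour (log2 1.11 and 0.45, limma adjusted p = 3.66e-06 and 0.00278). It was lower in Akt/Nras/Foxo1AAA than in Akt/Nras tumours (log2 -0.66, limma adjusted p = 0.0073, and 0.0522 with the 6 tumours alone). The other, Htra1, a secreted protease, had calls (log2 0.43 and 0.40, limma adjusted p = 0.0239 and 0.0364) that were each lost without any 1 of 5 libraries. These lists stand beside medians of -0.07 and -0.09 over all tested genes against normal liver.

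Markers of hepatocytes, bile duct cells and matrix-forming cells differed between the groups, and endothelial markers split. The counts are over tested genes, and summed levels take in the untested genes of a list as well. Against them stand 31.1% higher and 37.9% lower of all tested genes in Akt/Nras tumours, 26.8% and 36.5% in Akt/Nras/Foxo1AAA tumours, and 7.93% and 4.13% between the tumour groups. Of 14 hepatocyte markers 13 were lower in each tumour group, and 0 and 1 were higher. At equal FPKM totals 10 of the 14 were lower in each tumour group, and 1 and 2 were higher. The levels of these markers as deposited summed to 93880 to 98011 FPKM per normal liver, 31123 to 33589 FPKM per Akt/Nras and 37757 to 52231 FPKM per Akt/Nras/Foxo1AAA tumour. Between the tumour groups 7 of the 14 were higher in Akt/Nras/Foxo1AAA tumours and 0 lower, in the direction of Igfals, Igfbp2 and Igfbp4. Of 10 tested cholangiocyte and progenitor markers 10 rose in Akt/Nras and 8 in Akt/Nras/Foxo1AAA tumours, and 8 were lower in the latter than in the former, in the direction of Igfbp7. Their summed level without Spp1, the most abundant, was 11.4 to 13.5 FPKM per normal liver, 184 to 263 FPKM per Akt/Nras and 114 to 130 FPKM per Akt/Nras/Foxo1AAA tumour. Of 12 stellate cell and fibroblast markers 8 and 7 were higher and 2 lower in each tumour group, and 3 were lower and 0 higher in Akt/Nras/Foxo1AAA than in Akt/Nras tumours. With equal totals 11 and 10 of these markers were higher than in normal liver and 0 lower in each tumour group. Their summed level was 42.2 to 51.7, 168 to 190 and 110 to 144 FPKM in the same 3 groups in turn. Of 12 endothelial markers 5 were higher in each tumour group and 4 and 2 lower, and 1 was higher and 1 lower between the tumour groups. These endothelial counts are near those shares, with medians of -0.13 and 0.02 against normal liver. With equal totals 8 were higher in each tumour group and 0 and 1 lower. Their summed level was 46.4 to 58.2, 47.4 to 62.0 and 51.1 to 59.7 FPKM in the 3 groups. Of 11 Kupffer cell and macrophage markers 6 were higher in each tumour group, 3 and 0 were lower, and 1 was higher between the tumour groups. With equal totals 6 and 8 of these markers were higher than in normal liver and 0 lower in each tumour group. Their summed level was 197 to 331, 328 to 544 and 451 to 501 FPKM. The part of any of these cell types in the changes of the 10 genes was not tested.

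The genes most like 4 members of the axis over the 10 libraries were named by Pearson's r of log2(FPKM + 1), as a description. For Igf1 they included the carboxylesterases Ces1f and Ces1e (r = 0.996 each). For Igfals they were the cytochrome P450 gene Cyp2c29, the tryptophan pathway enzyme Haao and the hormone receptor Prlr (0.997 each). For Igfbp2 they were Tmem205 (0.998), the peroxisome gene Pex11a (0.998) and the serine racemase gene Srr (0.997). For Igfbp1 they were Fgfr1, a fibroblast growth factor receptor (0.993), Skil, a repressor in TGF-beta signalling (0.982), and Sult1e1, the oestrogen sulfotransferase (0.981). The libraries fall into normal liver and tumours, so a high r is common: 1594 of 12438 genes passed 0.95 with Igf1, 1532 with Igfals and 1213 with Igfbp2, but 156 with Igfbp1.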

How the data were processed

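RNA was sequenced from 4 normal livers, 3 Akt/Nras tumours and 3 Akt/Nras/Foxo1AAA tumours, grouped by sample title. The authors deposited 1 table of FPKM per gene and library, per the file headers. Total RNA was taken with a Quick-RNA Miniprep kit, per the labels' protocols, which name polyA capture or rRNA removal without saying which was used. The submitters' processing notes name FastQC 0.11.7 and GRCm38. Aligner, counter and annotation: not given in the sources used here. For FPKM above 0 and below a set read count, the value times its gene's listed length was a whole number of reads to within 0.02 (100.0% of these values). Values with higher read counts were not checked in this way. Counting of genes that share sequence or overlap could not be checked.

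From the deposited FPKM, log2(FPKM + 1) was fitted with limma 3.58.1 in R 4.3.3 (1 mean per group, variance trend, two-sided), for genes of at least 1 FPKM in at least 3 libraries. Changes in log2 understate those of low genes because 1 is added, and folds are ratios of mean FPKM. The script was tested on simulated data. Deviations from group means correlated at -0.17 to 0.112 over 9 pairs sharing a replicate number and at -0.15 to 0.196 over 24 others. Pairs were taken between groups, and these ranges overlapped. With so few libraries per group, this cannot decide whether libraries of equal number were related. Alternatives were another pseudocount, filters, 4 other scalings, other fits, a replicate block and leaving out each library. The 10 genes and 9 gene lists (146 symbols, 144 in the table) were chosen with earlier results of these data known. Named were all 10 genes, from each described pathway list and comparison up to 2 called genes with the largest rise and 2 with the largest fall, and the 3 genes most like Igf1, Igfals, Igfbp1 and Igfbp2. Markers are given by list. Foxo1, Akt1, Pecam1, Col1a1, Clec4g, Alb and Spp1 were named outside that rule, and some genes that the rule names are not reported here.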

Additional observations from a re-analysis of the deposited data

Results flagged for a closer look

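Of the 10 genes in the 4 normal livers, the only group large enough for a check of single libraries, 1 had a library far from the others. Igfbp3 measured 8.18 FPKM in the third normal liver, and the other normal livers lay between 11.6 and 12.2 FPKM. The gap to the nearest was 0.854 of the whole range. Chance alone marks about 1 in 20 such groups. The same library was the highest of the 4 for Igfbp1, at 41.7 FPKM.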

How the results depend on the processing

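Of 30 results (10 genes in 3 comparisons), 17 kept their direction and their side of the threshold in every alternative run, among them the calls of Igf1, Igf2r, Igfals, Igfbp1, Igfbp2, Igfbp3, Igfbp4 and Igfbp7 against normal liver in both tumour groups. Over 597 alternatives 560 were of that kind. Signs turned only where no call was made: Igf2r between the tumour groups was 0.00 with median-of-ratios scaling, and ran from -0.18 to 0.10 when single libraries were left out, with 0.00 without the second Akt/Nras tumour and 0.10 and 0.01 without the first and second Akt/Nras/Foxo1AAA tumour. Igfbp1 between the tumour groups ran from -1.06 to 0.26, with 0.04 without the first Akt/Nras tumour and 0.26 and 0.00 without the first and second Akt/Nras/Foxo1AAA tumour. Igfbp5 in Akt/Nras tumours was 0.37 with equal totals and 0.16 both with totals taken without the top 50 genes and with recovered reads scaled to depth; with array weights it was called (log2 -0.60, limma adjusted p = 0.0465). Igfbp5 between the tumour groups was called with equal totals (log2 -0.83, limma adjusted p = 0.0495). A minimum of 5 FPKM left no value for Igfbp5, and Igf1r had values without a filter only.

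With that minimum the genes called in all were 5372 and 5027 against normal liver, in place of 8587 and 7874, from fewer genes tested. Between the tumour groups 1500 genes were called, and 923 without a filter, 831 with no filter and a pseudocount of 0.1 (added after seeing the data), 3890 with equal totals, 3014 with recovered reads scaled to depth, 10 with the 6 tumours alone and 3668 with array weights. Leaving out 1 library gave 550 (the first Akt/Nras/Foxo1AAA tumour) to 1953 (the third), with 632 without the second and 901 without the first Akt/Nras tumour. Beyond the construction of each alternative the cause was not tested.

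The replicate numbers pair no libraries in the labels, and 2 of 9 libraries resembled their own number best. With the number as a block 468 genes were called between the tumour groups, and Igfals (limma, adjusted p = 0.0792) and Igfbp2 (0.0533) were not. Groups of 3 and 4 libraries limit every test, and 17 to 98 reads limit Igf1r.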
